A study of Mus musculus with 10 samples.

Results

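The difference of LPS responses between macrophage origins is, for each gene, the change that lipopolysaccharide (LPS, a component of the outer membrane of Gram-negative bacteria) made in resident bone marrow macrophages minus the change it made in bone marrow derived macrophages (BMDM), both on the log2 scale. All 10 RNA sequencing libraries of the study enter it: resident macrophages gave 3 untreated and 3 with LPS, and BMDM gave 2 and 2. The table holds 13809 genes, of which 13755 reached 10 normalized reads in at least 2 libraries and were tested. All cells came from the marrow of C57BL/6 mice aged 12 weeks, and the labels name no genetic change. Resident macrophages, labelled CD163+, were the cells that a magnetic column held back without any staining. BMDM, labelled CD163-, were grown from the cells that passed through the column, for 6 days by the protocol and 7 days by the sample titles, in medium with 20% L929 cell supernatant, a source of the growth factor CSF1. LPS was given at 1 µg/ml for 4 h, and untreated cells of the same origin were the reference. Only BMDM had been cultured for days before LPS, so origin and time in culture cannot be told apart.

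Values, called normalized reads here, are reads per gene scaled by the authors with 1 factor for each library, with a floor of 1. A response is a change in log2(value + 1) and is given ± SE, as is the difference. Calls rest on limma with Benjamini and Hochberg's adjustment over all genes tested, at a threshold of 0.05, and rose and fell are used of called responses. Nothing in the labels ties replicates to separate mice or cultures, and the spread behind each p-value is that among libraries, which may be technical, estimated over all 4 groups together. The libraries held 27.1 to 37.7 M reads on genes. Replicate 1 of both resident groups stood apart: its libraries held Y-linked transcripts (Ddx3y at 1856 and 1975 normalized reads) and the remaining 8 libraries held none above the floor. The X-linked transcript Xist stood at 1651 and 2172 in that pair and at 7873 to 13871 in the remaining 8. Y-linked transcripts were thus not spread evenly over the origins. Rn45s, a ribosomal RNA precursor, made up 4.70% of untreated BMDM replicate 2 and at most 1.34% of the others. Cd163, the scavenger receptor that gave the cells their labels, stood at 10740, 5282 and 6487 normalized reads in untreated resident libraries and at 41.9 and 53.9 in untreated BMDM. The libraries of resident cells also held more transcripts of other marrow cells. The 17 neutrophil marker genes summed to 0.775% to 1.63% of untreated and 1.16% to 1.40% of LPS-treated resident libraries, against 0.0107% of untreated and 0.0164% to 0.0171% of LPS-treated BMDM libraries, where Ly6g and Fcnb were at 3 reads or fewer. In bulk RNA, fewer cells of a type and less RNA per cell cannot be told apart.

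LPS is sensed by Toll-like receptor 4 together with CD14 and MD-2. The adaptor MyD88 leads from the receptor to NF-kB and MAP kinases, which drive the genes of Tnf, Il1b, Il6 and the neutrophil-attracting chemokines. The adaptor TRIF leads to the kinase TBK1 and the factor IRF3, which turn on interferon beta. Interferon beta then acts back on the macrophage through JAK kinases and STAT factors and turns on the antiviral genes. Both arms also switch on their own inhibitors, such as A20, IkB proteins and SOCS proteins. Resident marrow macrophages clear dying cells, recycle the iron of red cells and support the growth of erythroblasts.

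The difference was called in 5750 of 13755 genes (41.8%). It was above 0, a higher change in resident cells, in 2617 genes (19.0%) and below 0 in 3133 (22.8%). Of the called differences, 1604 were 1 or more and 1829 were -1 or less. Differences of 4 or more were fewer on the higher side, with 32 genes against 257 at -4 or less. The median SE was 0.218. LPS changed 1779 genes in resident macrophages (12.9%), of which 1013 rose (7.36%) and 766 fell (5.57%). In BMDM it changed 7952 genes (57.8%), of which 3896 rose (28.3%) and 4056 fell (29.5%). These 2 responses share no library and can be set against each other. Of the 1013 genes that rose in resident cells, 894 rose in BMDM too, with a median response of 0.55 in resident cells and 2.35 in BMDM, and the BMDM response was the larger of the pair in 861. Of the 766 genes that fell in resident cells, 589 fell in BMDM, with medians of -0.53 and -1.10. Another 29 genes rose in resident cells and fell in BMDM, and 33 did the reverse.

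**Figure D1:**
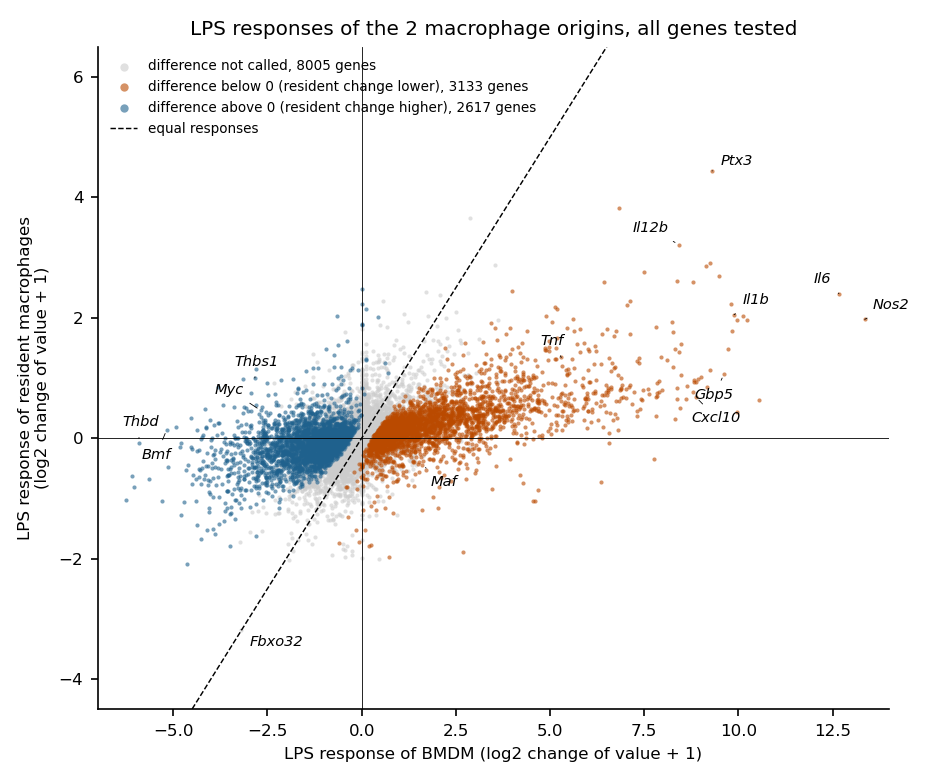
LPS response of BMDM (x axis) and of resident macrophages (y axis) for the 13755 genes tested, both as log2 change of value + 1, each point a gene and colored by whether the difference was called. Called genes below the dashed line of equal responses reach a BMDM response of 13.35 (Nos2), and resident responses span -3.18 (Fbxo32) to 4.44 (Ptx3).

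The split between higher and lower differences depends on how libraries are scaled. The deposited normalization leaves LPS-treated BMDM with the largest library sums, 38.6 and 38.8 M, against 24.7 and 26.0 M in untreated BMDM and 26.5 to 32.4 M in resident libraries. With the deposited scaling the median difference over all genes was 0.02, and 45.5% of called genes had a higher change in resident cells. With equal library totals the median difference was 0.48, and 75.3% of called genes (5570 of 7393) were on the higher side. With quantile normalization these values were 0.14 and 56.9% (3088 of 5425). Of the named genes, 17 changed their call or sign in the difference with a scaling, and this is said beside each. Leaving out untreated BMDM replicate 1 took the number of higher differences from 2617 to 1730, and leaving out any 1 library gave between 4276 and 5953 called genes. Without both libraries that hold Y-linked transcripts, 6798 genes were called, 3133 higher and 3665 lower. The resident response alone moved more: 970 genes were called without LPS-treated replicate 2, 1185 without untreated replicate 3, and 2890 when the pair that hold Y-linked transcripts was dropped. With a term for that pair in the fit 3449 were called. Of the named genes with no call in the resident response, 13 were called with that term: Ccl5, Rsad2, Cd14, Nod1, Zfp36l1, Vegfa and Hamp as rises, and Cnr2, Irak1, Asl, Cd163, Scd2 and Cox5a as falls. Without the pair the resident calls of Fpr2, Irf7, Dhcr7, Kcnj2, Sema4f and Satb1 were lost. Tnfsf4 and Alox5ap had a resident call without the pair but not with the term.

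The most negative differences were in inflammatory genes that untreated resident libraries already held above untreated BMDM. Nos2, which encodes inducible nitric oxide synthase, stood at 449, 346 and 127 normalized reads in untreated resident libraries, at 1308, 1092 and 846 after LPS, at 7.29 and 1.83 in untreated BMDM and at 52032 and 49298 in LPS-treated BMDM. No 2 of the 4 groups overlapped, and the order was untreated BMDM, untreated resident, LPS resident, LPS BMDM. The response was 1.97 ± 0.47 in resident cells and 13.35 ± 0.58 in BMDM, a difference of -11.38 ± 0.74 (adjusted p = 9.18e-07), the lowest of all genes tested. Il6, a fever and acute phase cytokine, went from 466, 680 and 296 to 2049, 2843 and 2402 in resident libraries and from 9.12 and the floor to 30712 and 27852 in BMDM. Its groups followed the same order without overlap. The difference was -10.26 ± 0.78, from a resident response of 2.40 and a BMDM response of 12.67.

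Proinflammatory cytokines as a list had a lower change in resident cells. Of 25 tested, 0 were called higher and 23 lower, against 19.0% and 22.8% of all genes, and the median difference was -4.99 against 0.02 over all genes. The same shares of all genes stand beside the counts of every list below. Cytokine genes rose in both origins: 19 of 25 in resident cells, with a median response of 1.70, and 25 of 25 in BMDM, with a median of 6.15. The median level was 4.41 higher in resident cells before LPS and 0.59 lower after it (both log2), and the difference is by construction the second gap minus the first. Neutrophil marker transcripts were likewise higher in resident libraries, as given above. With LPS 0 of the 17 rose and 2 fell there, and their part in these gaps was not tested.

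Il1b, which encodes interleukin 1 beta, stood at 33295, 26496 and 20716 normalized reads in untreated resident libraries and at 119893, 101091 and 107677 after LPS. In BMDM it went from 249 and 240 to 237366 and 227193. The untreated resident libraries thus held more Il1b than untreated BMDM by 6.75 on the log2 scale, and LPS-treated BMDM held more than LPS-treated resident cells by 1.09. Tnf, the gene of tumor necrosis factor, ended at like levels: 65181, 51408 and 62837 in LPS-treated resident libraries and 66514 and 63529 in LPS-treated BMDM, which overlap. Its untreated levels were 27090, 22600 and 21121 in resident libraries and 1651 and 1650 in BMDM, so its difference of -3.96 ± 0.19 came with a gap of 3.83 before LPS and of -0.13 after it.

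Il12b and Il27, of the interleukin 12 family, were higher in resident cells before LPS and lower after it. Il12b, which encodes the p40 subunit shared by interleukins 12 and 23, went from 51.7, 34.2 and 21.0 to 334, 309 and 314 normalized reads in resident libraries, and from 15.5 and 9.14 to 4790 and 4057 in BMDM. No groups overlapped, the LPS groups lay further apart than the untreated ones, and the difference was -5.20 ± 0.46. Il27, another member of that family, differed by -8.27 ± 0.38 and reached 2134, 1594 and 1629 in LPS-treated resident libraries and 11078 and 10670 in LPS-treated BMDM. Ifnb1, which encodes interferon beta, was at 99.9, 111 and 73.3 in untreated resident libraries and at 372, 492 and 518 after LPS. In BMDM both untreated libraries were at the floor, and LPS-treated libraries held 246 and 318, at least 103.0-fold above 3 reads per library. Resident cells held more Ifnb1 than BMDM after LPS, by 0.70, while the difference of responses was called lower, with an adjusted p of 1.4e-06 by limma. That difference was -4.86, and -2.55 with 10 in place of 1 added to each value. Ptx3, a secreted pattern recognition protein and the largest rise in resident cells, was chosen after its values were seen. Its resident response of 4.44 ± 0.42 stood against 9.30 ± 0.51 in BMDM, a difference of -4.86 ± 0.66.

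**Figure D2:**
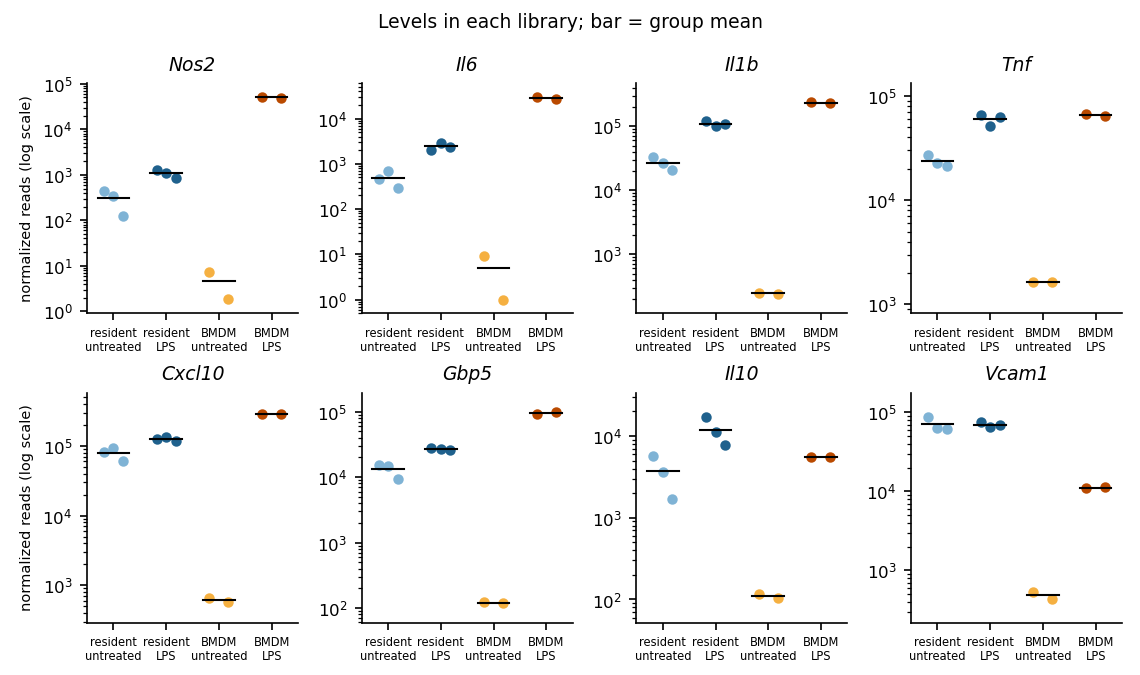
Normalized reads of 8 genes in each library on log axes, by group, with the bar at the group mean (3 resident libraries and 2 BMDM libraries per treatment). In Nos2, Il6, Il1b, Tnf, Cxcl10, Gbp5, Il10 and Vcam1 the untreated BMDM libraries are the lowest, and in Vcam1 and Il10 the LPS-treated resident libraries lie above LPS-treated BMDM.

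Chemokines draw leukocytes to a site of infection. Among CC chemokines, which mostly attract monocytes and T cells, 0 of 13 were called higher and 11 lower, with a median difference of -4.87. Ccl5 went from 47666, 39074 and 20491 to 75417, 58573 and 51010 normalized reads in resident libraries, and from 125 and 162 to 84775 and 79189 in BMDM. LPS-treated BMDM lay above every resident library for Ccl5, yet the gap of the LPS groups (-0.43) was not called. The resident response of 0.85 ± 0.27 was not called either, but it was with the term for the pair that hold Y-linked transcripts (adjusted p = 0.00965 by limma). Its difference was -8.31 ± 0.43. Ccl4, which rose by 1.48 in resident cells and by 8.31 in BMDM, differed by -6.84 ± 0.35.

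Of 12 CXC chemokines, 1 was called higher and 7 lower, with a median difference of -2.21. The ligands of Cxcr3 that interferons induce led this list. Cxcl10 stood at 82778, 92780 and 61338 in untreated resident libraries, at 124534, 134516 and 116310 after LPS, at 648 and 577 in untreated BMDM and at 289212 and 284869 in LPS-treated BMDM. It rose by 0.68 ± 0.15 in resident cells and by 8.87 ± 0.19 in BMDM, a difference of -8.19 ± 0.24. Cxcl11 and Cxcl9 differed by -9.90 ± 0.46 and -9.53 ± 0.33, and neither of their resident responses (0.63 and 0.44) was called. The exception on the higher side was Cxcl14, a chemokine outside the inflammatory group. In BMDM it fell from 1756 and 1795 to 133 and 123, while resident libraries held 78.5, 119 and 65.7 before and 149, 102 and 67.7 after LPS, a difference of 4.03 ± 0.44.

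The interferon response differed in every listed gene. All 47 tested antiviral interferon-stimulated genes and all 16 interferon-inducible GTPases were called lower, against 22.8% of all genes. The 47 stayed called in each setting but the test for a change of at least 1 (46), and 15 or 16 of the GTPases did. Median differences were -4.02 for the antiviral genes and -5.87 for the GTPases. Antiviral genes rose in 38 of 47 cases in resident cells, with a median of 0.54, and in 47 of 47 cases in BMDM, with a median of 4.48. Before LPS they were higher in resident cells by a median of 3.41, and after LPS lower by a median of 0.80.

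Gbp5, a guanylate binding protein that acts on bacteria and on inflammasomes, stood at 15468, 14737 and 9381 in untreated resident libraries, at 27478, 26955 and 26320 after LPS, at 122 and 118 in untreated BMDM and at 92234 and 97547 after LPS. Resident libraries were the higher before LPS and the lower after it, with no overlap. Its difference was -8.55 ± 0.25, and that of its relative Gbp4 was -7.99 ± 0.33. Rsad2, which encodes the antiviral enzyme viperin, held 197686, 190868 and 112582 in untreated resident libraries and 276785, 283226 and 229462 after LPS. In BMDM it went from 1696 and 1712 to 376060 and 399492, so its difference was -7.13 ± 0.34 although its resident response of 0.69 ± 0.22 was not called (adjusted p = 0.0644 by limma, and 0.0155 with that term). Ifi205, a member of the PYHIN family of DNA sensors, differed by -8.12 ± 0.30, and Ifit1bl1, a relative of the IFIT RNA-binding proteins, by -8.10 ± 0.20. Both belong to families of near-identical copies, so their reads could be split between relatives.

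The windows around the start sites of 6 of these genes are printed because they carry the binding sequences through which interferon and NF-kB signals are read. They come from RefSeq (build GRCm38.p6), run 5′ to 3′ on the gene's strand from 250 bases before to 50 bases after the start, and are in lower case. Capitals mark 2 motifs, searched on both strands. One is the core of the interferon-stimulated response element (ISRE), GAAA, any 2 bases and GAAA, and the other is a form of the NF-kB site, GGG, any 3 bases and TTCC.
Cxcl10 (chr5:92348840-92349139, minus strand): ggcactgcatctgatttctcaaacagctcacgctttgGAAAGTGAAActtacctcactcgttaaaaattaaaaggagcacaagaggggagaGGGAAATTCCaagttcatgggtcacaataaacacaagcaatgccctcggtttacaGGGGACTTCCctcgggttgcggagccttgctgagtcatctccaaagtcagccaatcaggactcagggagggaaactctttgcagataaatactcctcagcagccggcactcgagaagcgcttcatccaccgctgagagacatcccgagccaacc
Ifi205 (chr1:174031706-174032005, minus strand): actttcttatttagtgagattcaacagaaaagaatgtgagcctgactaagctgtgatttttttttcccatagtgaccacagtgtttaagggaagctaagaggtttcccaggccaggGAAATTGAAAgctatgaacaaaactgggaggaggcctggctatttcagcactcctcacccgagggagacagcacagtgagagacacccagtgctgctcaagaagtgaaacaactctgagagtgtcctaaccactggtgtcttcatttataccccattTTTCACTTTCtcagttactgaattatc
Rsad2 (chr12:26456403-26456702, minus strand): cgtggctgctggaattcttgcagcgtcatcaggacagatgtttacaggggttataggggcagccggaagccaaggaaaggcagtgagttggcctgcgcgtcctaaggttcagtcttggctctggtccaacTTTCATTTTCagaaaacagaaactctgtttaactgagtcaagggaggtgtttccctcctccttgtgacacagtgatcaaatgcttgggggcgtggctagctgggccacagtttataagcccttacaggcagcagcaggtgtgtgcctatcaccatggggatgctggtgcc
Gbp5 (chr3:142496684-142496983, plus strand): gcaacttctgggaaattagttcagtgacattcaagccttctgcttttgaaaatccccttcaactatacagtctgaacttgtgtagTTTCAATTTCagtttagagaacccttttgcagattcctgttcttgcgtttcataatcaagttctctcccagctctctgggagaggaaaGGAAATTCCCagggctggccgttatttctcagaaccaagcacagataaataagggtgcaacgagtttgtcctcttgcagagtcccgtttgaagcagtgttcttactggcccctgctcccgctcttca
Il6 (chr5:30012864-30013163, plus strand): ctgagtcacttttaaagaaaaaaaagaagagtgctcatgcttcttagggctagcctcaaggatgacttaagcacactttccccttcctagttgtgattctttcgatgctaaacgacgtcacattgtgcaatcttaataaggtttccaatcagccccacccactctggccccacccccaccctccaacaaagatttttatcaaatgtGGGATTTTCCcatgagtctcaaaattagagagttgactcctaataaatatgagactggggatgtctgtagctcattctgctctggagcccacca
Ifnb1 (chr4:88522745-88523044, minus strand): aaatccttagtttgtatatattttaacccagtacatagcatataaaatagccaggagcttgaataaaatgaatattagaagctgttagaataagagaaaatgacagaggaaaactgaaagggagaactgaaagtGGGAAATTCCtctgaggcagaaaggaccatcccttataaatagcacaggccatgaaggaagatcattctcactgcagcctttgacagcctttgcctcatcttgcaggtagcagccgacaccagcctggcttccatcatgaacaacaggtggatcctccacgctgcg

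In Cxcl10 the ISRE core begins 213 bases before the start, and the NF-kB matches begin 159 and 104 bases before it. Ifi205 holds 2 ISRE cores, the first 134 bases before the start and the second on the opposite strand, 23 to 32 bases after it. Rsad2 holds 1 ISRE core 120 bases before its start. Gbp5 holds 1 of each motif, while Il6 and Ifnb1 hold 1 NF-kB match, 44 and 116 bases before the start. Over all genes, 10917 of the 13755 tested were matched to this table. The ISRE core was present in 6.03% of 3200 promoters of genes called lower in the difference, in 1.79% of 2742 promoters of genes called higher and in 2.68% of 7882 promoters of genes not called, beside 3.44% of all 32851 promoters. For genes with a difference of -4 or less it was present in 52 of 226 promoters. It was present in 19 of 47 promoters of the antiviral list (40.4%) and 9 of 10 of the interferon-inducible GTPases, but in 1 of 20 of the proinflammatory cytokines. The NF-kB match varied less: 7.47% of promoters of lower genes, 5.43% of higher genes and 6.12% of genes not called held it. Its share was 6.29% over all genes tested and 5.56% of all promoters. In the NF-kB subunit and inhibitor list 12 of 24 promoters held it. Matches of the 2 motifs overlapped in 3 of all promoters. These shares describe letters in a window and are not a measure of binding.

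Genes that make and transmit the interferon signal also differed. Of 18 genes of type I interferon and JAK-STAT-IRF signalling, 16 were called lower and 2 higher. Irf7, the factor that amplifies interferon production, stood at 23899, 28011 and 21467 in untreated resident libraries, 32108, 32026 and 30416 after LPS, 836 and 967 in untreated BMDM and 40698 and 37806 after LPS. It differed by -5.07 ± 0.17. The higher calls were small. Ifngr1, a receptor chain for interferon gamma, fell by 0.33 in resident cells and by 0.98 in BMDM, a difference of 0.65 ± 0.09. Irf3 differed by 0.36 ± 0.12, a call that was lost for 4 of 10 left-out libraries.

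Of the LPS receptor itself, Cd14 and Tlr4 differed by less than the median of the cytokine list. Cd14 stood at 43809, 22159 and 18690 in untreated resident libraries, at 58814, 34994 and 34358 after LPS, at 24548 and 23495 in untreated BMDM and at 77907 and 78181 after LPS. In both resident groups replicate 1 was the highest. The difference of -1.05 ± 0.47 was not called (adjusted p = 0.105), but it was -0.93 with an adjusted p of 0.000341 without the 2 libraries that hold Y-linked transcripts, which are those replicates. Tlr4 fell in resident cells from 1607, 1409 and 1802 to 817, 932 and 921, while BMDM held 2192 and 2389 before and 2102 and 2063 after LPS. Its difference of -0.71 ± 0.15 was called with the deposited scaling and was -0.22 with equal totals and -0.29 with quantile normalization, neither called. Of 24 genes of the receptor and its proximal signalling, 2 were called higher and 15 lower, with a median of -0.73. Peli1, a ubiquitin ligase of this pathway, and the adaptor Myd88 led the lower side with differences of -3.58 ± 0.16 and -2.26 ± 0.12. Irak1, a kinase bound to Myd88, and Tab1, a partner of the kinase TAK1, were on the higher side with 0.39 and 0.49. The call of Irak1 was lost for 8 of 10 left-out libraries, and that of Tab1 with quantile normalization (0.30). With equal totals 6 of the 24 were called higher and 7 lower.

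Among other Toll-like receptors and cytosolic sensors, 15 of 24 were called lower and 2 higher. Nod1, a sensor of bacterial peptidoglycan, held 7866, 7753 and 6694 in untreated resident libraries and 8164, 8972 and 9676 after LPS, against 173 and 179 in untreated BMDM and 7834 and 7804 after LPS. BMDM thus reached with LPS the level that resident cells held throughout, and the difference was -5.20 ± 0.13. Tlr3, the receptor for double-stranded RNA, differed by -4.45 ± 0.24. The higher calls were 2 receptors that fell in BMDM: Tlr13, which senses bacterial ribosomal RNA, from 9687 and 10528 to 2402 and 2373, and Tlr5, the flagellin receptor, from 53.8 and 44.8 to 1.03 and the floor. Their differences were 1.87 ± 0.31 and 2.54 ± 0.57. Tlr5 fell in resident libraries too, from 17.8, 12.3 and 21.0 to 2.77, 5.37 and 1.96, while the resident response of Tlr13 was not called.

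The inhibitors that these signals switch on followed the cytokines. Of 20 NF-kB subunits and inhibitors, 0 were called higher and 18 lower, with medians of 0.50 in resident cells and 2.69 in BMDM. Tnfaip3, which encodes the inhibitor A20, went from 33525, 23979 and 20930 to 71362, 65600 and 75969 in resident libraries, and from 1956 and 1981 to 56753 and 59758 in BMDM. Every LPS-treated resident library was above both of BMDM, by a gap of 0.28 that was not called, and the difference was -3.42 ± 0.24. Nfkbiz, an atypical IkB protein needed for Il6 induction, differed by -3.52 ± 0.13. Among 15 receptors and antagonists of interleukin 1 and TNF, 12 were called lower and 0 higher. They included Il1rn, the interleukin 1 receptor antagonist (-3.65 ± 0.43), and the adaptor Traf1 (-4.72 ± 0.20).

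The anti-inflammatory list divided, with 13 of 20 called lower and 4 higher. Socs3 and Socs1, the SOCS proteins that stop cytokine receptor signalling, differed by -6.80 ± 0.33 and -6.75 ± 0.14. Il10, the main anti-inflammatory cytokine of macrophages, held 5749, 3639 and 1719 in untreated resident libraries and 16924, 11163 and 7852 after LPS. In BMDM it went from 117 and 103 to 5581 and 5475. All LPS-treated resident libraries were above both LPS-treated BMDM libraries, by 1.04 on the log2 scale, while the difference of responses was -3.85 ± 0.61. The higher side held Tsc22d3, a glucocorticoid-induced leucine zipper protein, which fell in BMDM from 1553 and 1757 to 112 and 110 and in resident cells from 1360, 1595 and 1699 to 952, 1139 and 1267. It differed by 3.41 ± 0.19, and Smad3, a signal carrier of TGF-beta, by 2.48 ± 0.24.

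MAP kinase phosphatases and mRNA decay factors went both ways, with 5 of 15 called higher and 6 lower. Their median difference of -0.20 turned to 0.28 with equal totals and 0.05 with quantile normalization. Dusp2 and Dusp16, phosphatases that switch off MAP kinases, differed by -2.97 and -2.52. For Dusp2 the resident libraries after LPS (10617, 10533 and 11510) were above those of BMDM (4951 and 4528). Zfp36l1 and Zfp36l2, which bind AU-rich mRNA and speed its decay, fell in BMDM by 2.74 and 2.64, and their resident responses of 0.27 and 0.02 were not called (Zfp36l1 was with that term). Their differences were 3.00 ± 0.22 and 2.65 ± 0.36. Of 27 immediate-early transcription factors, 6 were called higher and 12 lower, beside 19.0% and 22.8% of all genes. The list's median of -0.37 became 0.12 with equal totals. Batf2 and Batf, partners of interferon regulatory factors, differed by -5.10 ± 0.28 and -2.80 ± 0.23.

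**Figure D3:**
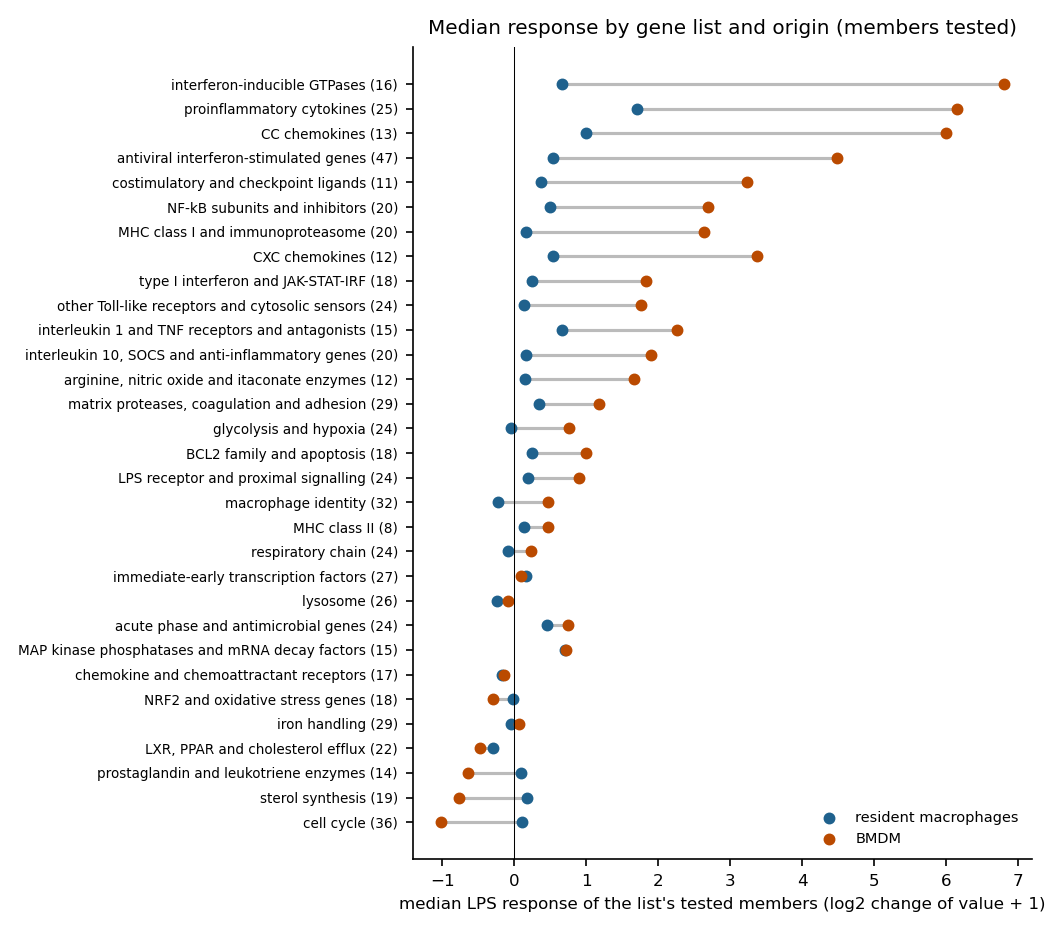
Median LPS response of the tested members of 31 gene lists in resident macrophages and in BMDM (log2 change of value + 1), ordered by the median difference, with the number of members tested in parentheses. The interferon-inducible GTPases stand at 0.66 and 6.80, and the cell cycle list at 0.11 and -1.02.

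Genes of antigen display moved mainly in class I. Of 20 genes of MHC class I and the immunoproteasome, 19 were called lower and 0 higher, with medians of 0.17 in resident cells and 2.64 in BMDM. Nlrc5, the transactivator of class I genes, went from 6563, 6877 and 5848 to 9525, 10373 and 10954 in resident libraries and from 461 and 433 to 15029 and 14714 in BMDM (difference -4.37 ± 0.13). Tap1, a peptide transporter, differed by -3.62 ± 0.13. Of 8 class II genes, 1 was called lower and 0 higher. It was their transactivator Ciita at -0.80 ± 0.28 (adjusted p = 0.0419), which was -0.31 and not called with equal totals and was lost for 7 of 10 left-out libraries. The class II median of -0.50 became 0.23 with quantile normalization, and without the 2 libraries that hold Y-linked transcripts 5 of the 8 were called lower. Among 11 costimulatory and checkpoint ligands, 8 were called lower and 2 higher. Cd40 stood at 14004, 9828 and 7621 in LPS-treated resident libraries and at 72539 and 72570 in LPS-treated BMDM, with a difference of -7.07 ± 0.41. Tnfsf4, the OX40 ligand, differed by -7.96 ± 0.40. The inhibitory receptors Havcr2 and Vsir were the higher calls, at 2.37 ± 0.23 and 1.58 ± 0.13, and both fell in BMDM. Vsir fell in resident cells as well, with a response of -0.57.

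Enzymes of arginine, nitric oxide and itaconate gave 9 lower and 2 higher calls among 12. Irg1, whose enzyme makes the antibacterial metabolite itaconate, went from 26683, 23618 and 22494 to 76283, 59723 and 62000 in resident libraries. In BMDM it went from 789 and 837 to 277608 and 279412, a difference of -6.98 ± 0.18. Arg1, which competes with Nos2 for arginine, was a fall: from 423, 420 and 518 to 135, 124 and 143 in resident libraries and from 31.9 and 32.0 to 17.5 and 24.4 in BMDM. Its difference was -1.14 ± 0.27, and with equal totals it was -0.68 and not called. On the higher side Ddah2, an enzyme that removes inhibitors of nitric oxide synthase, differed by 0.74 (0.34 and not called with quantile normalization) and Asl, of the urea cycle, by 0.39, a call lost for 7 of 10 left-out libraries.

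Prostaglandin enzymes gave 4 lower and 1 higher call among 14, and 2 of the lower calls were at steps that make prostaglandin E2. Ptgs2, which encodes cyclooxygenase 2, stood at 1809, 1141 and 750 in untreated resident libraries, 11882, 6691 and 5303 after LPS, 172 and 145 in untreated BMDM and 113877 and 115213 after LPS. It differed by -6.79 ± 0.52, and Ptges, the next enzyme, by -4.32 ± 0.29. Alox5ap of the leukotriene branch was the higher call (0.81 ± 0.22), beside 5 of the list with equal totals. Among 24 acute phase and antimicrobial genes, 10 were called lower and 1 higher. Higher calls were 4 with equal totals and 6 with quantile normalization, and the median of -0.24 became 0.25 with equal totals. The lower calls included Cfb, complement factor B (-7.86 ± 0.29), and Saa3, a serum amyloid A gene (-6.33 ± 0.38), which reached 7404, 10739 and 10038 in resident libraries and 77798 and 63437 in BMDM with LPS. Of 18 NRF2 and oxidative stress genes, 4 were called higher and 4 lower, shares near those of all genes, and 7 higher and 4 lower with equal totals. Sod2, the mitochondrial superoxide dismutase, differed by -3.13 ± 0.25 and the cystine transporter Slc7a11 by -1.98 ± 0.20. Gclc and Srxn1, both NRF2 targets, fell in BMDM and differed by 1.99 ± 0.20 and 1.67 ± 0.17.

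Of 17 receptors that guide migration 4 were called higher and 5 lower, shares near those of all genes (19.0% and 22.8%), and 7 and 5 with equal totals. Fpr2 and Fpr1, receptors for formylated bacterial peptides that neutrophils carry too, differed by -6.93 ± 0.35 and -3.97 ± 0.24. Fpr1 rose in resident libraries from 1620, 1455 and 1697 to 6038, 5594 and 5239 and in BMDM from 21.0 and 12.8 to 1007 and 927. The part of the neutrophil transcripts in these levels was not tested, and the neutrophil marker list itself gave 1 higher and 2 lower calls among 17. Gpr183, a receptor for oxysterols, and Cxcr4, which holds cells in the marrow, were on the higher side. Cxcr4 fell in both origins, from 11297, 7755 and 9586 to 5003, 4061 and 4589 in resident libraries and from 4917 and 4776 to 186 and 184 in BMDM, with a difference of 3.65 ± 0.20.

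The 12 genes named for the largest positive differences all fell in BMDM. Thbd, which encodes thrombomodulin, the surface receptor that turns thrombin into an anticoagulant, stood at 447, 504 and 300 in untreated and 386, 421 and 355 in LPS-treated resident libraries. In BMDM it fell from 628 and 787 to 9.25 and 12.2. Resident libraries overlapped between treatments, while BMDM lost nearly all of it, and the difference of 5.84 ± 0.32 (adjusted p = 2.47e-07) was the highest among all genes tested. Cnr2, the cannabinoid receptor of immune cells, fell in BMDM from 1648 and 1586 to 25.7 and 20.3 and stood at 169, 308 and 399 before and 155, 181 and 199 after LPS in resident libraries. It differed by 5.45 ± 0.42. Bmf, a pro-apoptotic BH3-only protein, differed by 5.32 ± 0.41. S1pr1, the receptor for sphingosine 1-phosphate, differed by 4.50 ± 0.61. It went from 385, 1146 and 625 to 489, 1218 and 614 in resident libraries and from 2872 and 2810 to 132 and 142 in BMDM.

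The other genes of largest positive difference were Pald1 (5.24), Kazald1 (5.12), Plekhg3 (4.97), the glycosyltransferase Galnt9 (4.67), Tpbgl (4.67), the transcription factor Sox4 (4.39) and Olfml3 (4.32). All 7 fell in BMDM. Pald1 and Plekhg3 fell in resident cells as well, by 0.80 and 0.68, and no response was called there for the other 5. Galnt9 lay near the floor in all resident libraries (at most 1.78) and at 596 and 651 in untreated BMDM, so for it the difference is the BMDM fall alone. On the other side, Cd69, an early activation antigen, differed by -8.25 ± 0.19 and Lipg, endothelial lipase, by -8.09 ± 0.40, next to the cytokine and interferon genes given above.

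**Figure D4:**
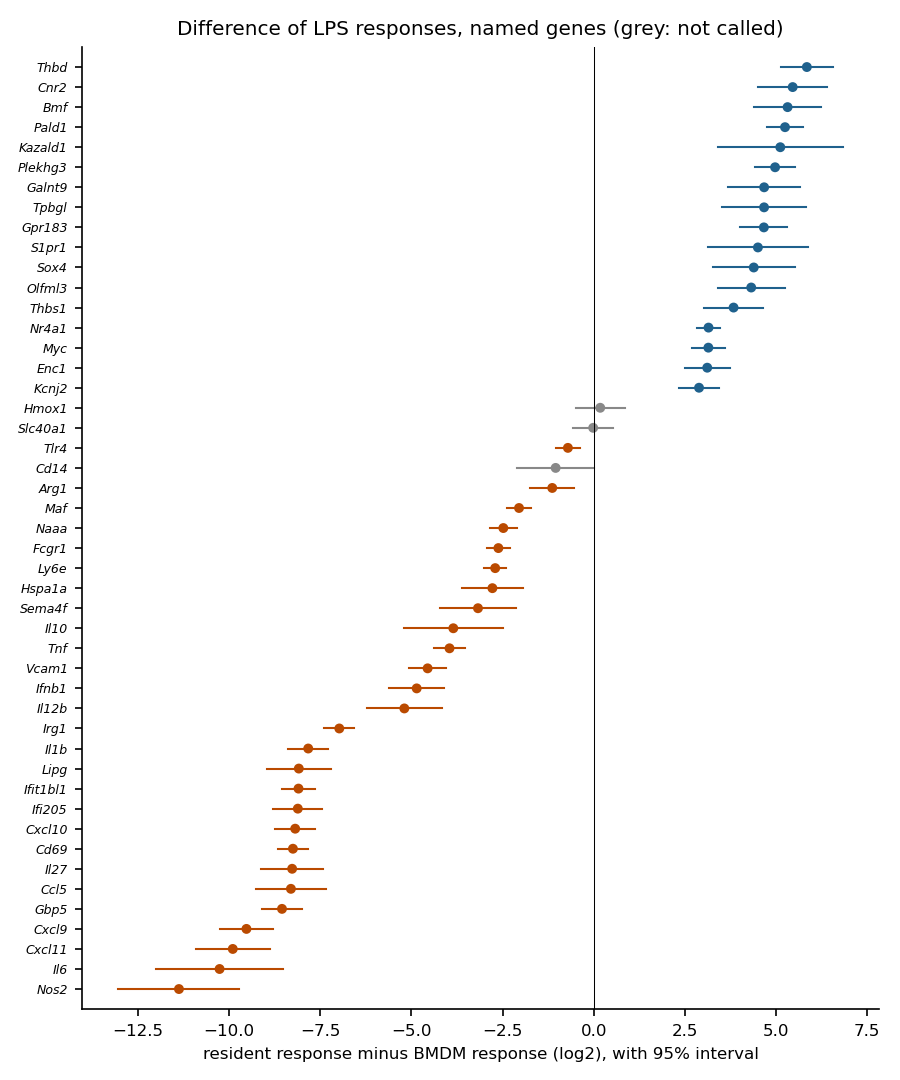
Difference of LPS responses (resident minus BMDM, log2) with its 95% interval for the core genes of the study, the 12 largest differences in each direction and the genes called in opposite directions. The points run from -11.38 (Nos2) to 5.84 (Thbd), and grey points (Cd14, Hmox1 and Slc40a1) were not called.

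Sterol synthesis and the cell cycle were the 2 lists with most members on the higher side. Of 19 genes of cholesterol synthesis, 15 were called higher and 0 lower, against 19.0% of all genes called higher, with a median difference of 0.98. In BMDM 14 of 19 fell (median -0.77), and in resident cells 4 rose and 1 fell (median 0.18). Dhcr7, the last enzyme of the pathway, fell in BMDM from 552 and 526 to 67.9 and 92.1 and in resident cells from 126, 130 and 132 to 60.0, 88.0 and 95.2, a difference of 2.06 ± 0.30. Mvd, an enzyme of the mevalonate steps, differed by 2.00 ± 0.22. Over the settings tried, between 10 and 17 of the list were called higher, the test for a change of at least 1 aside (3 called), and 0 were called lower in any.

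Of 36 cell cycle genes, 22 were called higher and 3 lower, with a median difference of 1.10. In BMDM 25 fell and 3 rose, and in resident cells 2 rose and 0 fell. With equal totals 28 of the list were called higher and 3 lower, and with quantile normalization 26 and 3. In the test for a change of at least 1 these numbers were 3 and 2. E2f2, a factor that drives entry into S phase, fell in BMDM from 606 and 577 to 29.8 and 25.7 and stood at 593, 970 and 1243 before and 620, 806 and 918 after LPS in resident libraries. Its difference was 4.15 ± 0.38, and that of Cdc25b, a phosphatase that starts mitosis, was 2.77 ± 0.47. Ccnd2, the gene of cyclin D2, went the other way, from 105 and 91.4 to 12572 and 13153 in BMDM and from 4136, 4485 and 3858 to 5886, 7381 and 6728 in resident libraries (-6.35 ± 0.15). Cdkn1a, the inhibitor p21, differed by -3.08 ± 0.19. Resident libraries also held erythroid marker transcripts at 0.165% to 0.264%, against at most 0.00555% in BMDM, and their part in the cell cycle levels was not tested.

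LXR, PPAR and cholesterol efflux genes gave 7 higher and 2 lower calls among 22, and 12 and 1 with equal totals. Ch25h, which makes 25-hydroxycholesterol, rose in BMDM from 30.1 and 34.7 to 15133 and 14345, whereas resident libraries stood at 221, 296 and 139 before and 507, 409 and 217 after LPS. Resident groups overlapped, their response of 0.76 ± 0.32 was not called, and the difference was -8.02 ± 0.50. The lower call of Nr1h2, which encodes LXR beta, was small (-0.43) and turned to 0.06 with equal totals. Scd2, a fatty acid desaturase, fell in BMDM from 4613 and 4570 to 318 and 332 and differed by 3.32 ± 0.29. Rxra, the partner of LXR and PPAR, fell in both origins and differed by 1.94 ± 0.21.

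Energy metabolism was covered by a pair of lists. Of 24 glycolysis and hypoxia genes, 18 were called lower and 2 higher (median -0.87), and with equal totals 10 lower and 5 higher (median -0.38). Pfkfb3, whose product speeds glycolysis, rose by 0.77 in resident cells and by 4.57 in BMDM, and Hif1a by 0.24 and 2.07. Vegfa, a HIF target, fell in BMDM from 6044 and 5969 to 960 and 936, and its resident response of 0.36 ± 0.17 was not called (it was with that term). Its difference was 3.02 ± 0.27, and that of Egln3, a prolyl hydroxylase that marks HIF for decay, was 2.20 ± 0.58. Among 24 respiratory chain genes 11 were called lower and 0 higher, with a median of -0.37, but with equal totals 1 was lower and 7 were higher, and the median was 0.11. Cycs, cytochrome c, kept its lower call (-1.44 ± 0.14, and -0.95 with equal totals), whereas Cox5a (-0.68 ± 0.19) was -0.19 with equal totals and not called.

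Iron genes changed in parallel in part. Hmox1, the heme oxygenase, fell from 286950, 194797 and 216462 to 161359, 116991 and 158256 in resident libraries and from 14817 and 13188 to 8800 and 6841 in BMDM. The responses were -0.67 and -0.85, and the difference of 0.18 ± 0.30 was not called, with a 95% interval of -0.50 to 0.85. It was called with equal totals (0.66, adjusted p = 0.0398 by limma) and with quantile normalization (0.99). Slc40a1, the iron exporter ferroportin, fell by 0.92 in resident cells and by 0.91 in BMDM, a difference of -0.02 ± 0.24 with an interval of -0.56 to 0.53. Of 29 iron genes tested, 3 were called higher and 12 lower, and with equal totals 12 and 8. Cp, the ferroxidase ceruloplasmin, rose in BMDM from 62.9 and 63.1 to 4161 and 3993, against 126, 173 and 100 before and 215, 248 and 199 after LPS in resident libraries (-5.24 ± 0.29). Hamp, the gene of hepcidin, which blocks ferroportin, rose in BMDM from 1.82 and the floor to 139 and 175 and stood at 106, 37.0 and 20.0 before and 170, 155 and 64.8 after LPS in resident libraries. It differed by -4.59 ± 0.88. Lrp1, which takes up heme with hemopexin, differed by 1.37 ± 0.23, and Cd163, which takes up hemoglobin, by 1.14 ± 0.39, a call lost for 8 of 10 left-out libraries and with quantile normalization (0.63).

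Of 32 macrophage identity genes, 17 were called lower and 3 higher. Vcam1, an adhesion molecule of island macrophages, stood at 88787, 63273 and 62423 in untreated and 76315, 64879 and 68689 in LPS-treated resident libraries, which overlap. In BMDM it rose from 531 and 432 to 10900 and 11500, so the difference was -4.56 ± 0.23 although resident cells held more with and without LPS. Marco, a scavenger receptor for bacteria, rose in BMDM and differed by -3.06 ± 0.24. Cebpa, a factor of the myeloid lineage, fell in both origins and more in BMDM. It went from 2521, 1801 and 2538 to 1335, 817 and 865 in resident libraries and from 8397 and 8842 to 733 and 666 in BMDM (2.42 ± 0.29). Lysosomal genes gave 6 lower and 3 higher calls among 26, beside 22.8% and 19.0% of all genes. With equal totals the list gave 1 and 6, and without the 2 libraries that hold Y-linked transcripts 12 and 4. Ctsc, cathepsin C, differed by -3.45 ± 0.21 and Npc2, a cholesterol carrier of the lysosome, by -0.96 ± 0.33, a call lost with equal totals (-0.48) and with quantile normalization (-0.09). Tfeb, the factor that drives lysosomal genes, fell in BMDM from 2145 and 2146 to 199 and 179 and differed by 2.99 ± 0.20. It fell in resident cells as well, with a response of -0.51. Ctsk, cathepsin K, rose by 0.97 in resident cells and fell by 0.48 in BMDM.

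Among 29 matrix proteases, coagulation and adhesion genes, 16 were called lower and 4 higher. Serpinb2, an inhibitor of plasminogen activators, and Mmp13, a collagenase, differed by -6.92 ± 0.69 and -6.60 ± 0.46. Of 18 BCL2 family and apoptosis genes, 10 were called lower and 4 higher, beside 22.8% and 19.0% of all genes. Bcl2a1d, a pro-survival member with near-identical copies whose reads cannot be told apart with certainty, differed by -4.14 ± 0.37, and the death receptor Fas by -3.77 ± 0.13. Bcl2, the founding survival gene, fell in BMDM from 242 and 231 to 61.7 and 66.4 and differed by 2.30 ± 0.27, on the same side as its antagonist Bmf.

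Genes called in opposite directions were few, 29 and 33, and their responses were mostly small in resident cells (medians of 0.52 and -0.45). These numbers moved with the setting. They were 81 and 125 with the term for the libraries that hold Y-linked transcripts, and 64 and 98 without those libraries. Without LPS-treated resident replicate 2 they were 16 and 10, and in the test for a change of at least 1 they were 0 and 0. Thbs1, which encodes the secreted protein thrombospondin 1, rose in resident libraries from 8392, 17537 and 14890 to 21639, 30240 and 26820 and fell in BMDM from 10611 and 10231 to 1416 and 1508. The untreated libraries of the origins overlapped, and the LPS-treated ones lay apart by 4.15. Myc, the growth-promoting factor, stood at 1317, 1886 and 1839 and then 2147, 2274 and 2448 in resident libraries, against 1711 and 1663 and then 281 and 245 in BMDM. Nr4a1, an orphan nuclear receptor, rose from 2230, 2285 and 2568 to 3150, 3410 and 3546 in resident libraries and fell in BMDM from 1287 and 1312 to 192 and 226. In these 3 genes the resident libraries did not overlap between treatments, yet the resident call was lost in some settings for Myc and Thbs1, with equal totals among them. Gpr183, named among the receptors, rose in resident cells from 59.8, 94.0 and 91.4 to 134, 157 and 145 and fell in BMDM from 1002 and 993 to 75.1 and 65.0. Enc1 and the potassium channel gene Kcnj2 completed this side, with differences of 3.11 ± 0.28 and 2.89 ± 0.24.

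In the reverse direction, Fcgr1, the high-affinity receptor for IgG, fell in resident libraries from 2702, 3279 and 2778 to 2134, 1998 and 1771 and rose in BMDM from 6567 and 6584 to 27370 and 27071. Maf, a factor of macrophage identity, fell from 1216, 1101 and 1048 to 938, 773 and 766 and rose in BMDM from 2631 and 2678 to 8565 and 7623. Both genes were higher in BMDM with and without LPS. Ly6e, an interferon-induced surface protein, fell by 0.31 in resident cells and rose by 2.40 in BMDM, and Naaa, a lysosomal amidase, fell by 0.47 and rose by 2.01. Hspa1a, an inducible heat shock protein, fell in resident libraries from 4922, 7179 and 6687 to 1952, 3539 and 2882 and rose in BMDM from 260 and 419 to 969 and 1024. Its near-identical copy Hspa1b could share these reads. Sema4f, a semaphorin, fell by 1.16 in resident cells, while in BMDM both untreated libraries were at the floor and LPS-treated ones held 6.17 and 8.13.

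**Figure D5:**
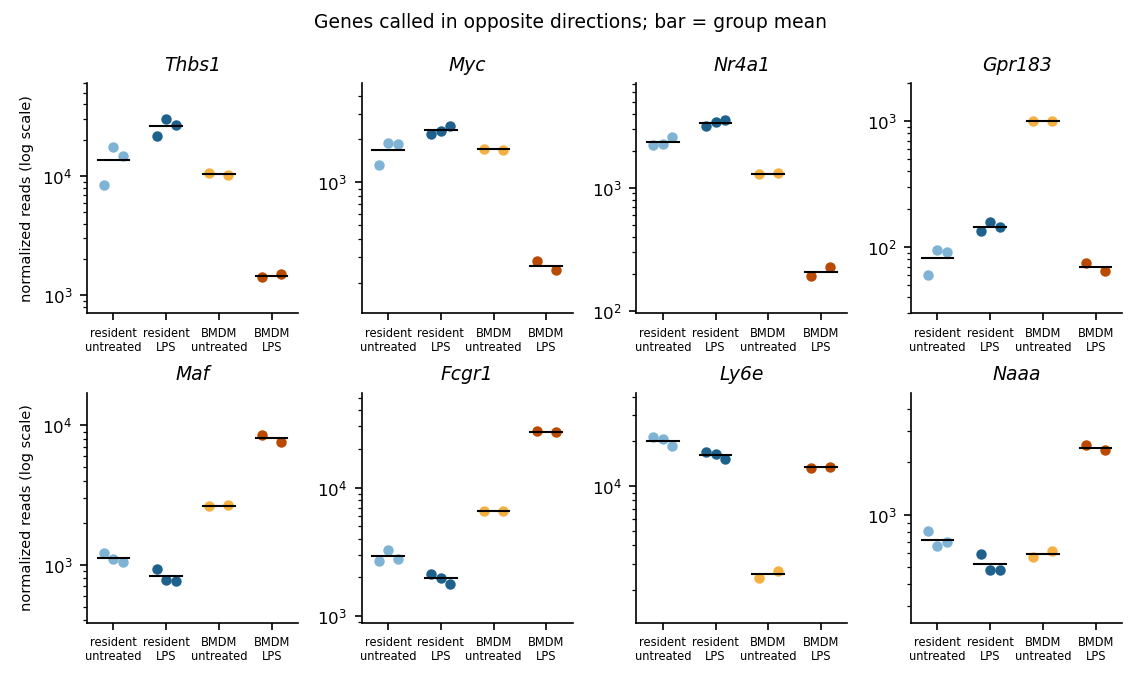
Normalized reads in each library on log axes for 8 genes called in opposite directions, with the bar at the group mean. Thbs1, Myc, Nr4a1 and Gpr183 rose in resident libraries and fell in BMDM, and Maf, Fcgr1, Ly6e and Naaa did the reverse.

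A larger change in resident cells was uncommon. Of 894 genes that rose in both origins, the difference was called lower in 766 and higher in 2. Of 589 that fell in both, it was called higher in 310 and lower in 3, Arg1 among these. A further 90 genes rose in resident cells with no call in BMDM, and 34 of them had a called positive difference, while 144 fell in resident cells with no call in BMDM, and 46 of them had a called negative difference. The genes named next from these sets were chosen after their values were seen. Pim2, a survival kinase, rose in resident libraries from 503, 559 and 589 to 1314, 1357 and 1460 and stood in BMDM at 108 and 81.3 before and 103 and 100 after LPS (1.21 ± 0.19). Cldn1, a tight junction protein, rose from 397, 461 and 497 to 1408, 1485 and 1236 in resident libraries and was at 4.06 or less in all BMDM libraries. Satb1, a chromatin organizer, differed by 1.20 ± 0.25 and the kinase gene Plk2, which rose in both, by 0.64 ± 0.21, a call lost for 8 of 10 left-out libraries. In the falling direction, Aif1, a calcium-binding macrophage protein, fell by 0.66 in resident cells and by no called amount in BMDM (0.04 ± 0.08), a difference of -0.70 ± 0.11 that was -0.22 and not called with equal totals. Cd5l, a secreted survival factor of tissue macrophages, differed by -0.76 ± 0.21 (-0.28 and not called with equal totals) and F13a1, coagulation factor XIII, by -1.77 ± 0.43 (-1.29 and not called with equal totals).

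Responses of like size were also found. In 480 of the 1483 genes that changed in the same direction in both origins, the 95% interval of the difference lay within -1 to 1, and 170 of these rose and 310 fell. Over all genes tested the interval lay within these bounds in 5639 of 13755, a larger share. Like size was thus not more frequent among genes that changed in both origins. These counts are for the deposited scaling only. Fbxo32, a ubiquitin ligase of muscle wasting and the largest fall in resident cells, went from 1475, 903 and 1173 to 163, 106 and 119 in resident libraries and from 396 and 403 to 43.2 and 42.0 in BMDM. The responses of -3.18 and -3.20 differed by 0.02 ± 0.31. Tnip3, an inhibitor of NF-kB that binds A20, rose from 463, 389 and 338 to 1791, 1646 and 1320 in resident libraries and from 3850 and 3913 to 19099 and 17300 in BMDM. Its responses were 2.00 and 2.23, and every BMDM library was above every resident library. Other rises of like size were those of Ttc39c (1.29 and 1.62), Gprc5c (1.06 and 1.45), the phosphatase gene Dusp8 (1.18 and 1.28), Cdk5r1 (1.01 and 1.31), the stress factor Atf3 (0.88 and 1.25) and the pro-apoptotic Bcl2l11 (0.88 and 0.99). For Atf3 the difference was -0.37 with the deposited scaling and 0.44 with quantile normalization, where it was called, and for Bcl2l11 it was -0.11 and, with equal totals, 0.38 and called. Foxp1 (0.77 and 1.49) met the bound of 1 and had a called difference of -0.72 ± 0.10, which was -0.24 and not called with equal totals. Falls of like size included Cd101 (-1.87 and -1.82), the potassium channel gene Kcnj10 (-1.69 and -1.69), the folate and heme transporter gene Slc46a1 (-1.25 and -1.63, a called difference of 0.87 with equal totals), Cep19 (-1.12 and -1.35), Cmbl (-1.26 and -1.17), Tspan10 (-1.18 and -1.20) and Neurl2 (-1.10 and -1.18).

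Marker lists of other cell types differed in level between origins, and their calls stand beside 19.0% higher and 22.8% lower over all genes. In LPS-treated BMDM 9 of the 14 erythroid and 7 of the 11 T and NK cell markers were at 3 reads or fewer, which limits what can be called. Of 14 erythroid markers 3 were called higher and 0 lower, of 13 B lineage markers 0 and 1, of 11 T and NK cell markers 2 and 2, of 12 megakaryocyte and platelet markers 0 and 0, of 14 stroma and endothelium markers 1 and 2, and of 14 eosinophil, basophil and mast cell markers 1 and 0. The dendritic cell list gave 0 higher and 6 lower calls among 10, and the monocyte list 0 and 4 among 10. Of 15 markers of resident marrow macrophages, 1 was called higher and 6 lower. Their summed share was 1.67% to 2.18% in untreated and 1.14% to 1.38% in LPS-treated resident libraries, and 0.751% to 0.830% in untreated and 0.506% to 0.514% in LPS-treated BMDM. The part of these cells in the differences given above was not tested.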

How the data were processed

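RNA was sequenced from 10 libraries: 3 untreated and 3 LPS-treated of resident macrophages, and 2 untreated and 2 LPS-treated of BMDM, grouped by the labels. Per the submitters' processing notes, HISAT 0.1.7 and the mouse build mm10 were used; for the counter and the normalization, the sources used here give nothing. The deposited signal values of each gene are whole multiples of 1 value per library, 0.892 to 1.35 (100% of low values, within 0.02), so the authors divided read counts by 1 factor per library, with a floor of 1. The recovered reads were 27.1 to 37.7 M per library, which sets the precision at low values.

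The 13755 of 13809 genes that reached 10 in 2 or more libraries were fitted as log2(value + 1) with limma 3.58.1 in R 4.3.3, with a variance trend, 1 mean per group and Benjamini and Hochberg's adjustment over all genes tested. The difference of responses is the interaction of origin and LPS. On the log2(value + 1) scale the changes of low genes are understated. The fit was tried on simulated counts with the same setting of the spread for all genes and groups and no LPS change in BMDM. That trial does not cover the unequal spread of these libraries. Figures and tables used Python 3.11.15, pandas 2.3.3 and matplotlib 3.10.9.

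The lists, tests and rules for naming genes were chosen with earlier results of these data known. Genes are named if they belong to a core set of 16, are among the 12 largest differences in each direction with a mean of at least 20 in a group, are among the 2 largest called differences in each direction of a list, are among the 6 largest called in opposite directions each way, or are among the 8 largest rises and falls of like size. Predicted genes without a name were left out. A few more genes were picked with their values in view. Some genes that the rules name are not reported here. Alternatives were other pseudocounts, filters, scalings, variance models and library weights, a minimum change of 1, a term for or the removal of the 2 libraries that hold Y-linked transcripts, and each library left out. The planned edgeR test was not run, and voom on the recovered reads and equal totals without Rn45s were added after the data were seen. The labels do not pair libraries across groups.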

Additional observations from a re-analysis of the deposited data

Results flagged for a closer look

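The 12 genes below moved in opposite directions in the origins, with both responses and the difference of responses called by limma. Groups of 2 or 3 libraries were not tested for outlying libraries. On the side that rose in resident cells and fell in BMDM, the difference (log2) was 4.66 for Gpr183, 3.83 for Thbs1, 3.15 for Nr4a1, 3.14 for Myc, 3.11 for Enc1 and 2.89 for Kcnj2. On the side that fell in resident cells and rose in BMDM, it was -3.18 for Sema4f, -2.78 for Hspa1a, -2.70 for Ly6e, -2.62 for Fcgr1, -2.48 for Naaa and -2.05 for Maf. The difference kept its sign for all 12 in every setting run. Both opposite calls were present in 25 of 25 settings for Nr4a1, Enc1 and Fcgr1, in 24 for Hspa1a, in 23 for Naaa and Maf, and in 21 for Gpr183. They were present in 18 for Thbs1, 16 for Ly6e, 14 for Kcnj2, 13 for Myc and 15 of 24 for Sema4f, the test for a minimum change left out of this count.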

How the results depend on the processing

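The number of called differences, 5750, lay between 4276 and 5953 when 1 library was left out and was 1498 in a test for a change of at least 1 (436 higher, 1062 lower). Higher differences numbered 5570 with equal totals, 5358 with voom and 5964 with totals without Rn45s, and lower ones 1823, 1781 and 1786. With 1 library left out, higher differences ranged from 1730 to 2705 and lower ones from 2500 to 3249. The resident response had 15 calls for a change of at least 1, 3449 with a term for the libraries that hold Y-linked transcripts, 2890 without them, and 970 to 2290 with 1 library left out. The BMDM response had 2383 for a change of at least 1 and 6368 to 8537 with 1 library left out.

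List medians near 0 turned sign in 8 of 31 lists with equal totals, in 8 with quantile normalization, in 1 without the libraries that hold Y-linked transcripts and in 3 when 1 library was left out. Values with the opposite sign include these. With equal totals, voom and totals without Rn45s, Nr1h2 was 0.0556, 0.0537 and 0.0933, Bcl2l11 was 0.3766, 0.3773 and 0.4143, the median of the immediate-early list was 0.116, 0.116 and 0.154 and that of the respiratory chain was 0.114, 0.114 and 0.152. With quantile normalization, Atf3 was 0.438, and the medians of MHC class II, immediate-early and respiratory chain genes were 0.233, 0.002 and 0.172. MHC class II was 0.024 with totals without Rn45s. The cause was not tested. Of 155 genes chosen by the naming rules or after their values were seen, 119 kept their call and direction in each setting that tested them, and 24 of 25 settings tested every one (152 were tested with the filter at 100). Without BMDM untreated replicate 1, the calls of Cox5a, Ddah2, Egln3, Nr1h2 and Tab1 were among those lost. Cd14 and Ttc39c became called without the libraries that hold Y-linked transcripts. No paired analysis was possible because the labels number the libraries in a single run from 1 to 10 and tie none across groups. Y-linked transcripts mark replicate 1 of both resident groups, and the term for that pair was the only such link fitted. It took the resident calls from 1779 to 3449. The spread behind these calls is shared with BMDM, and whether the main fit understates or overstates them was not tested.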
